A study of Mus musculus with 8 samples.

Results

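The genes described here are the G1 cyclins and the cyclin-dependent kinase (CDK) inhibitors of the mouse, 10 genes of the 40840 in the count tables. They were chosen by symbol: the D cyclins Ccnd1, Ccnd2 and Ccnd3, the E cyclins Ccne1 and Ccne2, the CIP/KIP inhibitors Cdkn1a, Cdkn1b and Cdkn1c, and the INK4 inhibitors Cdkn2a and Cdkn2b. RNA was sequenced from 8 primary cultures of hepatic stellate cells (HSCs), liver cells that store retinoids and become collagen-secreting myofibroblasts (MF) on plastic. The cells came from male C57BL/6J mice of 15 to 18 weeks, were sorted by their retinol autofluorescence and were cultured for 7 days in serum to give pMF-HSCs. The labels give no genetic change, and the 2 groups differed in a treatment of 24 h. Control cultures (n = 4) received the solvent DMSO, and OGTi cultures (n = 4) received OSMI-1 at 50 µM, an inhibitor of the enzyme OGT (O-GlcNAc transferase), which attaches a single sugar to proteins inside the cell. The labels call the cultures biological replicates and give no animal for each, and the model is a culture on plastic of cells that have left the liver.

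D cyclins are made when growth factors act on a cell. They bind CDK4 or CDK6, which begin to phosphorylate the retinoblastoma protein, and E cyclins with CDK2 complete this step, so that E2F transcription factors are released and S phase genes are transcribed. INK4 proteins bind CDK4 and CDK6 and keep D cyclins away, whereas CIP/KIP proteins bind cyclin-CDK complexes and block mainly CDK2. Activated stellate cells divide, and the balance of cyclins and inhibitors is one of the points at which that division is controlled.

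The libraries held 30068876 to 37372420 expected counts, and some libraries stood apart from their group. Control replicate 4 had 235 genes at least 4-fold below the other controls, where the other controls had 0 to 18, and OGTi replicate 1 had 183 such genes, where the rest of its group had 2 to 11. OGTi replicate 4 had 177 genes at least 4-fold above the rest of its group, where the others had 5 to 14. The 10 most counted genes took 6.73% to 7.76% of counts in control libraries and 10.9% to 15.8% in OGTi libraries. The 12 stellate markers summed to 6390 to 11978 TPM in control and 4878 to 10797 in OGTi. TPM is a transcript abundance corrected for gene length and depth. Dcn (means of 5743 TPM in control and 5518 in OGTi) and Acta2 (2157 and 1793) made up most of the sum (means of 9235 and 8055). Lrat, Reln, Hand2, Lhx2 and Rgs5 had control means of 3.68 to 19.3 TPM. Lrat (log2 fold change, log2 FC, -1.78 ± 0.28) and Pdgfrb (-1.68 ± 0.24) fell. The 9 hepatocyte markers summed to 0.08 to 0.62 TPM in control and 0.64 to 1.69 in OGTi, without overlap. Hnf4a was at 0 in every library, and Cyp2e1 was called higher, with 0.921 to 2.64 scaled counts in control and 12.3 to 45.9 in OGTi (adjusted p = 0.00591). Cyp2e1 (0.05 and 0.745 TPM) made up most of the difference in the sum (means of 0.365 and 1.20 TPM), and no other hepatocyte marker was called. The 8 endothelial markers summed to 1.56 to 3.40 TPM in control and 0.62 to 1.18 in OGTi, and Tek (51.1 to 148 and 3.45 to 26.5 scaled counts, adjusted p = 0.00235) and Lyve1 (10.1 to 33.4 and 0 to 8.93 scaled counts, adjusted p = 0.0340) fell. The mean of the sum was 2.57 TPM in control and 0.898 in OGTi, of which Tek (1.14 and 0.103 TPM) and Lyve1 (0.465 and 0.0575 TPM) made up most of the difference; the other 6 were not called, and Pecam1 was at 0.165 and 0.283 TPM. The highest sums of lymphocyte and mesothelial markers were 0.76 and 2.32. The 10 macrophage markers summed to 62.1 to 199 TPM in control and 94.6 to 237 in OGTi, with Adgre1 at 0 in 3 of the libraries. Of these, Cd68 rose (log2 FC 1.499 ± 0.214, adjusted p = 0.00154), Cd14 fell (-0.88 ± 0.27, adjusted p = 0.0455) and 8 were not called. The call on Cd14 was lost under upper-quartile scaling and without replicate 1, 3 or 4. The 5 cholangiocyte markers summed to 307 to 654 and 128 to 563 TPM, most of it from Spp1 (356 ± 189 and 234 ± 177 TPM, SD, n = 4). Sox9 rose (3.03 ± 0.63, adjusted p = 0.00858) and Krt19 fell (-0.66 ± 0.20, adjusted p = 0.0462), and Krt7 had 0 to 153 scaled counts and Epcam 0 to 32.4 over the 8 libraries. The call on Krt19 was lost when any replicate was left out, without the replicate block, under upper-quartile scaling and without the filter on low counts. The part of these cells in the values below was not tested, and in bulk RNA fewer cells of a kind and less RNA per cell cannot be told apart.

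OGTi lowered 3 of the 5 cyclins and raised 1 of the 5 inhibitors. Ccnd1 and Ccne2 fell more than 4-fold, Ccnd2 fell 1.95-fold, and Cdkn1a, which encodes p21, rose 1.58-fold. All 10 genes passed the filter on low counts, although Cdkn1c and Cdkn2a had only a few counts per library. A quasi-likelihood model was fitted with edgeR, pairing libraries by replicate, and p-values were adjusted over the 19963 genes tested. At an adjusted p no higher than 0.05, 4 of the 10 were called changed, 1 higher and 3 lower, beside 18.4% of all genes tested (8.13% higher and 10.2% lower). Their median log2 FC was -0.79, and -0.62 for the 9 genes without Cdkn2a, whose counts are too few for a fold, beside 0.01 for all genes tested. Of the 6 genes that were not called, 3 (Ccnd3, Ccne1 and Cdkn1b) had an unadjusted p under 0.05, all of them with a negative log2 FC.

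**Figure D1:**
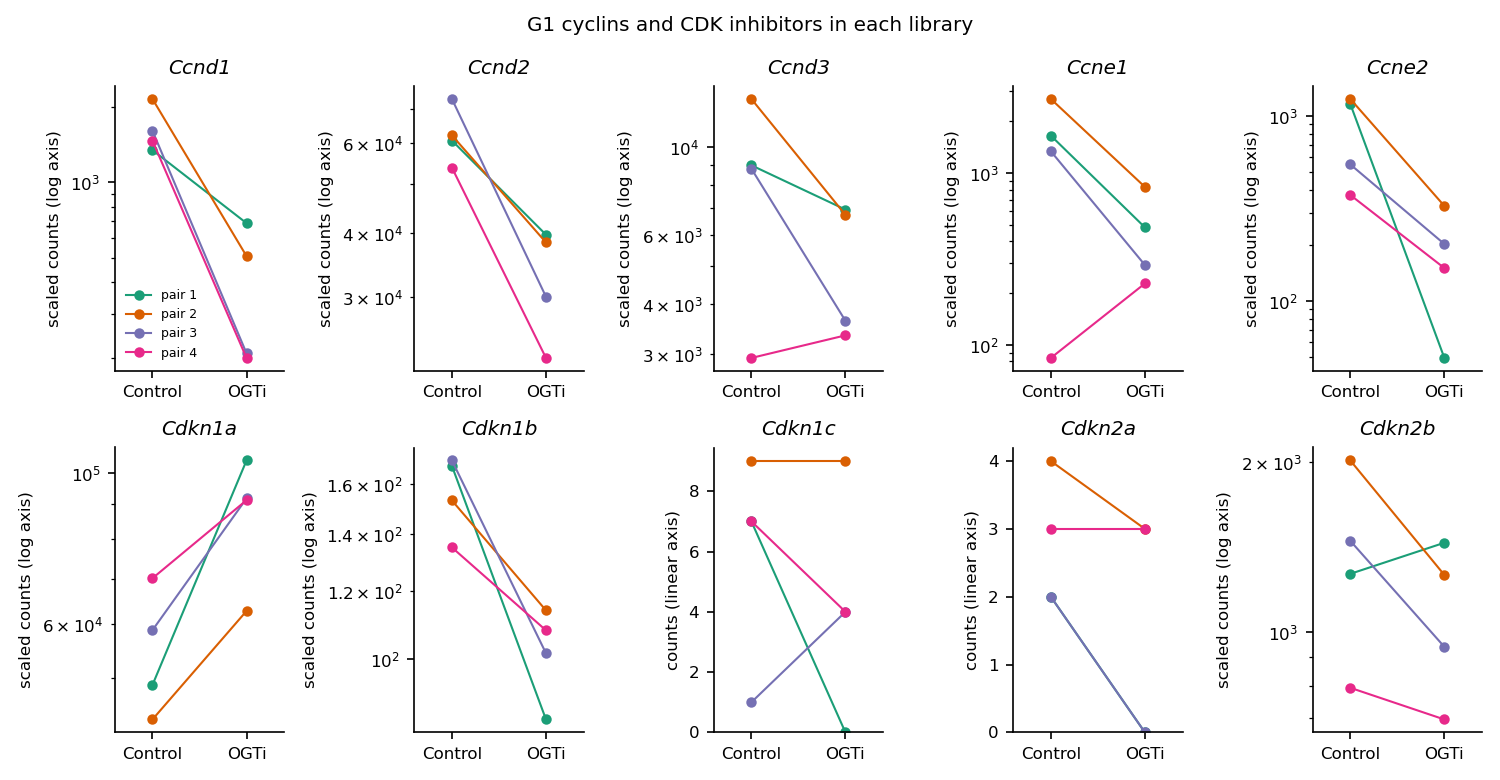
Scaled counts (log axes) of each G1 cyclin and CDK inhibitor in the 4 control and 4 OGTi libraries, with raw counts on linear axes for Cdkn1c and Cdkn2a; lines join libraries of the same replicate number. Ccnd1, Ccnd2 and Ccne2 fall in all 4 pairs and Cdkn1a rises in all 4, while Ccnd3 and Ccne1 move the other way in pair 4.

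Sequence is shown first for 2 of the genes, because the call on Cdkn1a was lost under 8 of 14 other settings and Ccne1 spread 32.2-fold over the control libraries. Of the 10 genes, 6 matched the RefSeq promoter table (GRCm38.p6), with 9 start sites between them, and Ccnd1, Ccnd2, Ccne2 and Cdkn1c were not matched. The full sequence of each of these promoter entries matched GRCm39 exactly once, and positions are given in that build. The 250 bases before each start were taken as its window. The windows were searched on both strands for an E2F site (TTTCCCGC, TTTCGCGC, TTTGGCGC or TTTGCCGC, found in 1.86% of the 32851 promoters of the same length), the GC box GGGCGG bound by SP1 (32.7%), the cyclic AMP response element TGACGTCA (1.55%), the TEAD site GGAATG (12.6%) and TATAAA (12.4%). A match describes letters only, and its absence says only that these letters were not in the window.

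Cdkn1a has 2 start sites in the table, 2790 bases apart. The window before the upstream start (chr17:29309703-29309952, plus strand) held a p53 response element, in capitals, from 51 to 32 bases before the start. That motif is 2 half-sites of 10 bases, of which at most 1 of 20 positions was allowed to differ; this tolerance was chosen after the sequence had been seen, and 25 promoters (0.0761%) pass it. The window before the downstream start (chr17:29312493-29312742, plus strand) held 2 GC boxes, in capitals, and no p53 element.
Cdkn1a upstream: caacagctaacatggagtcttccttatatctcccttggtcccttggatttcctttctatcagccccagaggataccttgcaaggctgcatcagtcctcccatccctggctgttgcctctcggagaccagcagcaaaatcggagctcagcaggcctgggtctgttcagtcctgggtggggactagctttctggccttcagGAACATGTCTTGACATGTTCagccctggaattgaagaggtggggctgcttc
Cdkn1a downstream: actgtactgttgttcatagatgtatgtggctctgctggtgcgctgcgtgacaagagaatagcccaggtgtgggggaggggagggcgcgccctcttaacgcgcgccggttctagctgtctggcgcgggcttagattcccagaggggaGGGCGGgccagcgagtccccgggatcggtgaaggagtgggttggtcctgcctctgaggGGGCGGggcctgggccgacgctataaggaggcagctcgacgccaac

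Ccne1 had 4 GC boxes, in capitals, in the window before its start (chr7:37806916-37807165, minus strand, printed 5′ to 3′ of the gene). This RefSeq start lies within the GENCODE span of the gene, and the window was 76% G and C, beside a median of 52.4% over all promoters.
Ccne1: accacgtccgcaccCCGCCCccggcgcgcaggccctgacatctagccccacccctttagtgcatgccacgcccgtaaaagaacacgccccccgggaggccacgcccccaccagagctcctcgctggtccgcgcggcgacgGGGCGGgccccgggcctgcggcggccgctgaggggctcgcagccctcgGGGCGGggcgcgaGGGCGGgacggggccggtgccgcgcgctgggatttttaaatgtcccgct

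The other windows are described without their letters. Cdkn2b had the cyclic AMP response element from 46 to 39 bases before its start. Cdkn2a had an E2F site from 99 to 92 bases before its first start, beside 2 GC boxes, and no motif of the search before its other start. The Ccnd3 windows held 2 GC boxes and 1 GC box with a TEAD site, and the Cdkn1b window held 1 GC box.

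D cyclins are the growth factor-dependent subunits of CDK4 and CDK6. Ccnd1 (chr7:144483668-144493662, minus strand, GRCm39), the D cyclin best known as a target of mitogen signals, had 1342, 2145, 1602 and 1463 scaled counts in control replicates 1 to 4 and 687, 508, 209 and 199.9 in OGTi replicates 1 to 4. Scaled counts are counts divided by library size and composition and brought back to the average library. The groups did not overlap, and the OGTi libraries spread more (3.44-fold between lowest and highest) than the controls (1.60-fold). Ccnd1 fell 4.65-fold (log2 FC -2.22 ± 0.34 SE, 95% interval -2.98 to -1.45, adjusted p = 0.00218). The difference within pairs was -0.97, -2.08, -2.94 and -2.87 on the log2 scale. Of the pairs with an OGTi library that stands apart, pair 1 had the smallest fall of the 4 and pair 4 one close to the largest.

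Ccnd2 (chr6:127102125-127129156, minus strand) was the most abundant cyclin of the 5. Its scaled counts were 60797, 62235, 73351 and 53788 in control and 39728, 38368, 30019 and 22772 in OGTi. The groups did not overlap, and every pair fell, by 0.61 to 1.29 on the log2 scale. Ccnd2 fell 1.95-fold (log2 FC -0.96 ± 0.19, 95% interval -1.38 to -0.54, adjusted p = 0.00702). With the trend of fold change on gene length removed, its log2 FC was -0.66 and its adjusted p 0.0529, which misses the threshold.

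Ccnd3 (chr17:47815767-47910624, plus strand) had 8973, 13194, 8798 and 2929 scaled counts in control and 6936, 6725, 3635 and 3340.25 in OGTi. The groups overlapped, since control replicate 4 was the lowest library of all 8. Its log2 FC was -0.61 ± 0.26 (95% interval -1.18 to -0.04, adjusted p = 0.132), with a fall in 3 pairs and a difference of 0.19 in pair 4. Under library totals alone as the scale it passed the test (log2 FC -0.80, adjusted p = 0.0465).

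E cyclins activate CDK2 at the entry into S phase. Ccne2 (chr4:11190303-11204947, plus strand) had 1161, 1236, 547 and 374 scaled counts in control and 49.2, 326, 203 and 150.5 in OGTi. The groups did not overlap, although the highest OGTi library and the lowest control library were close. Ccne2 fell 4.605-fold (log2 FC -2.20 ± 0.49, 95% interval -3.29 to -1.12, adjusted p = 0.0118). OGTi replicate 1 was the lowest, and the difference in pair 1 was -4.56 on the log2 scale against -1.92 to -1.31 in the other pairs. Without replicate 1 the log2 FC was the smallest of all settings, -1.56, and Ccne2 still passed the test (adjusted p = 0.00728).

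Ccne1 (chr7:37797404-37808264, minus strand) had 1650.1, 2697, 1338 and 83.8 scaled counts in control and 482, 829.7, 291 and 227 in OGTi. Control replicate 4 was 15.96-fold below the next control, and Ccne1 was 1 of the 235 genes at least 4-fold below there. The other 3 controls lay above all OGTi libraries. Over all 4 pairs the log2 FC was -1.20 ± 0.53 (95% interval -2.37 to -0.02, adjusted p = 0.150), which was not called. Differences within pairs were -1.77, -1.70, -2.20 and 1.44. Without replicate 4 the log2 FC was -1.88 and the adjusted p 0.00577, and with all pairs but no filter on low counts it was called as well (-1.20, adjusted p = 0.00752).

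CIP/KIP proteins bind whole cyclin-CDK complexes. Cdkn1a (chr17:29309936-29319701, plus strand), which encodes p21 and is a known target of p53 and of other stress and growth arrest signals, had 48904, 43535, 58826 and 70080.4 scaled counts in control and 104262, 62762, 91737 and 91188 in OGTi. The groups overlapped, because OGTi replicate 2 lay under control replicate 4, yet each OGTi library was above its own control, by 1.09, 0.53, 0.64 and 0.38 on the log2 scale. Cdkn1a rose 1.58-fold (log2 FC 0.66 ± 0.18, 95% interval 0.26 to 1.06, adjusted p = 0.0297). The call was lost without the replicate block (0.66, adjusted p = 0.0690), under library totals alone (0.47, adjusted p = 0.0851), on log2(TPM + 1) (0.33, adjusted p = 0.112), and without replicate 2, 3 or 4 (adjusted p of 0.0549, 0.102 and 0.0518), with a positive log2 FC in each. In TPM it was 1595 ± 355 in control and 1984 ± 222 in OGTi (SD, n = 4).

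Cdkn1b (chr6:134897364-134902476, plus strand), which encodes p27, the inhibitor that accumulates in resting cells, had 168, 153, 170.4 and 135 scaled counts in control and 85.0, 114, 101.5 and 108 in OGTi. The groups did not overlap and every pair was lower in OGTi, by 0.32 to 0.98 on the log2 scale. Its log2 FC was -0.62 ± 0.27 (95% interval -1.22 to -0.02), and it did not pass after adjustment (adjusted p = 0.146, 0.0613 to 0.371 over the other settings). With Ccnd1, Ccnd2 and Ccne2 it made 4 of 10 genes whose groups did not overlap, beside 23.5% of all genes tested.

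Cdkn1c (chr7:143012069-143014806, minus strand), which encodes p57 and is expressed from the maternal allele, was close to the limit of detection. It had 7, 9, 1 and 7 counts in control and 0, 9, 4 and 4 in OGTi, where a count of 0 allows up to 3. A difference was not detectable at this depth (log2 FC -0.33 ± 1.20, 95% interval -3.00 to 2.34, adjusted p = 0.886).

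INK4 proteins compete with D cyclins for CDK4 and CDK6. Cdkn2b (chr4:89223204-89229276, minus strand), which encodes p15, an inhibitor known to be induced by TGF-beta, had 1267, 2016, 1450.3 and 794 scaled counts in control and 1439, 1261, 939 and 697 in OGTi. The groups overlapped and 3 of 4 pairs were lower. Its log2 FC was -0.33 ± 0.23 (95% interval -0.84 to 0.18, adjusted p = 0.368). On log2(TPM + 1) the log2 FC was -0.64 and passed the test (adjusted p = 0.0373), so the call depends on the scale.

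Cdkn2a (chr4:89192708-89212890, minus strand), whose transcripts encode p16 and p19Arf and are summed in the gene-level counts, had 2, 4, 2 and 3 counts in control and 0, 3, 0 and 3 in OGTi. These counts lie at or near the 3 that a count of 0 allows, no fold is given, and a difference was not detectable (adjusted p = 0.673). Of its neighbours, Dmrta1 had no counts. Mtap, an enzyme of methionine salvage, had 5260.4, 4423, 3475 and 5660.4 scaled counts in control and 4033, 2869, 1895 and 2686 in OGTi. The groups overlapped, and Mtap fell in the fit (log2 FC -0.74 ± 0.20, adjusted p = 0.0310). The call on Mtap was lost without the replicate block, under upper-quartile scaling and without replicate 2, 3 or 4. Of 9 tested genes in the imprinted domain of Cdkn1c, 1 fell (Nap1l4, a histone chaperone, log2 FC -0.76 ± 0.20, adjusted p = 0.0254), and 8 were not called. Over all genes tested, 10.2% were lower. The call on Nap1l4 was lost under upper-quartile scaling and without replicate 3 or 4. H19, the tenth of that list, did not pass the filter.

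**Figure D2:**
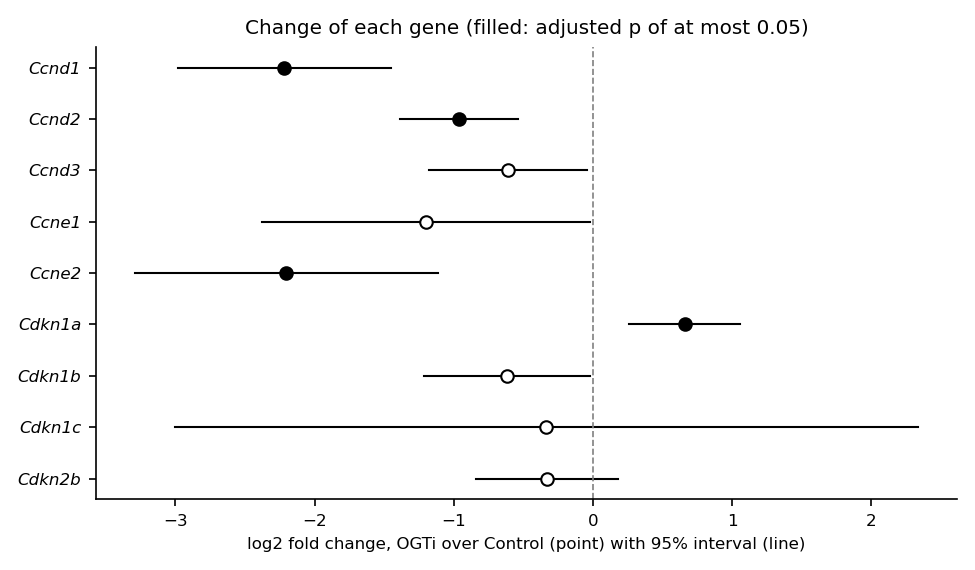
Log2 fold change of each gene but Cdkn2a, OGTi over control (points), with its 95% interval (lines); filled points passed the edgeR test at an adjusted p of at most 0.05. The intervals of Ccnd1, Ccnd2, Ccne2 and Cdkn1a stay clear of 0, those of Ccnd3, Ccne1 and Cdkn1b end between -0.04 and -0.02, and that of Cdkn1c, which has few counts, is the widest.

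Levels were compared between genes in TPM, which accounts for length. In control cultures the order of median levels was Cdkn1a (1559 TPM), Ccnd2 (495), Ccnd3 (269), Cdkn2b (57.3), Ccne1 (42.3), Ccnd1 (21.6), Ccne2 (15.2), Cdkn1b (3.55), Cdkn1c (0.185) and Cdkn2a (0.165). The ranges over libraries overlapped between the neighbours Cdkn2b and Ccne1, Ccne1 and Ccnd1, Ccnd1 and Ccne2, and Cdkn1c and Cdkn2a. In OGTi the same genes came in the same order, with medians of 2066, 207, 115, 36.2, 7.91, 4.39, 2.54, 1.89, 0.105 and 0.1 TPM. Here Ccnd2 and Ccnd3, Ccne1 and Ccnd1, Ccnd1 and Ccne2, Ccne2 and Cdkn1b, and Cdkn1c and Cdkn2a overlapped.

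The 5 cyclins together were at 843 ± 202 TPM in control and 355 ± 115 in OGTi (SD, n = 4), and every OGTi library lay under every control library. The 5 inhibitors, most of whose transcripts were Cdkn1a in both groups, were at 1657 ± 338 and 2023 ± 212 TPM, with overlap. The 3 D cyclins summed to 787 ± 171 TPM in control and 342 ± 107 in OGTi (SD, n = 4), and the 2 E cyclins to 55.3 ± 36.7 and 13.4 ± 9.03. CIP/KIP genes summed to 1599 ± 354 and 1986 ± 222 TPM, and INK4 genes to 58.1 ± 20.9 and 36.3 ± 10.9. The E cyclin and INK4 sums overlapped between the groups, since control replicate 4 (9.09 TPM of E cyclins, 33.7 of INK4) lay inside the OGTi range.

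**Figure D3:**
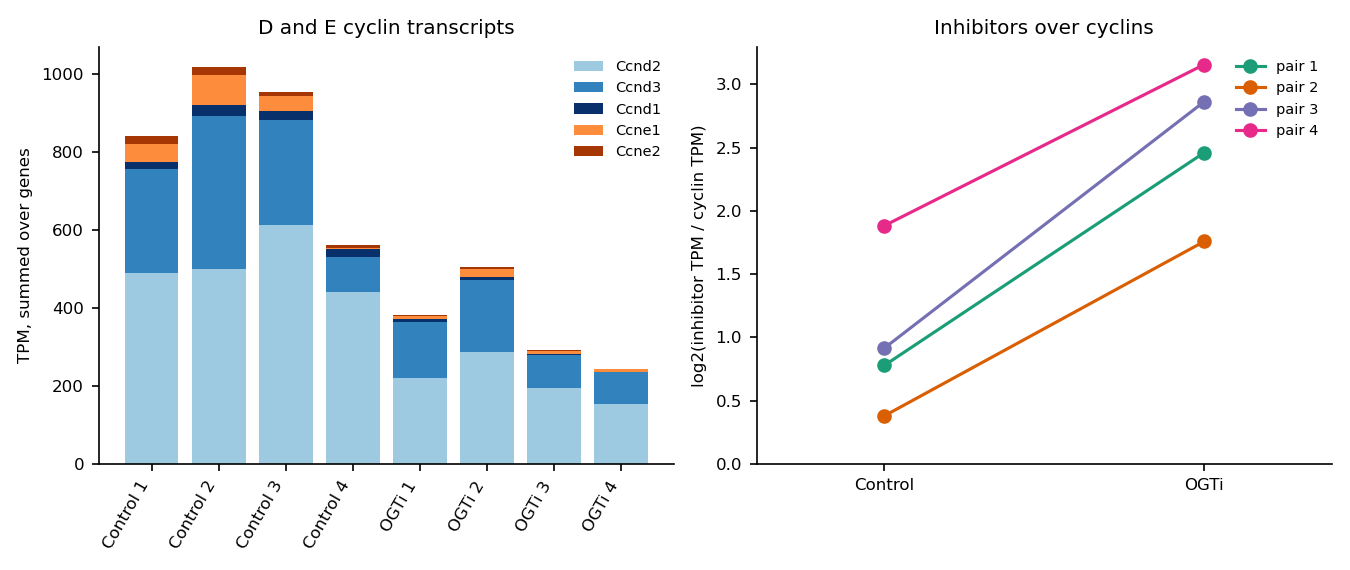
Left, TPM of the 5 cyclins stacked for each library; right, log2 of the summed inhibitor TPM over the summed cyclin TPM, with lines joining libraries of the same replicate number. Cyclins sum to 559.5 TPM or more in every control library and 505.4 or less in every OGTi library, and the ratio is higher in OGTi in all 4 pairs.

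Within families, 7 shares and ratios were compared by an exact two-sided permutation test over the 70 splits of 4 against 4, whose smallest p is 0.0286, with adjustment over the 7 values. Ccnd1 made up 2.38%, 3.20%, 2.52% and 3.72% of D cyclin transcripts in control and 1.76%, 1.36%, 0.812% and 0.964% in OGTi. The share was lower in OGTi in all 4 pairs and the groups did not overlap, at the smallest p the test can give (exact p = 0.0286, adjusted p = 0.1). The Cdkn1a share of CIP/KIP transcripts, 99.76% in control and 99.90% in OGTi on average, was higher in OGTi in all 4 pairs (exact p = 0.0286, adjusted p = 0.1).

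The log2 ratio of inhibitors to cyclins was 0.778, 0.380, 0.915 and 1.88 in control and 2.46, 1.76, 2.86 and 3.16 in OGTi, a mean difference of 1.57. It was higher in OGTi in all 4 pairs, and control replicate 4 lay above OGTi replicate 2 (exact p = 0.0571, adjusted p = 0.133). The Ccnd2 and Ccnd3 shares of D cyclins, the Ccne1 share of E cyclins and the Cdkn2a share of INK4 transcripts differed by less than the spread between libraries (adjusted p of 0.767, 0.640, 0.550 and 0.886). The Cdkn2a share rests on 0 to 4 counts of Cdkn2a per library, too few to show a change. None of the 7 values passed the adjusted threshold. A test that only flips signs within the 4 pairs cannot reach 0.05.

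The counts of the lists around the G1 genes stand beside 8.13% higher and 10.2% lower over all genes tested. The lists begin with the kinases that the cyclins activate. Of 10 CDKs and their activators, 5 fell and 0 rose (median log2 FC -0.83). They were Cdk1 (-1.94 ± 0.24, adjusted p = 0.000803), the mitotic kinase, Cdk2 (-1.48 ± 0.23, adjusted p = 0.00238), the partner of E cyclins, Cdk6 (-0.76), Ccnh and Cdc25b. Cdk2 had 3054, 2435, 1839 and 2254 scaled counts in control and 914, 946, 960.03 and 623 in OGTi, without overlap. Cdk4, the other partner of D cyclins, had a log2 FC of -0.43 ± 0.19 and an adjusted p of 0.149. Without replicate 2, 3 or 4, the count that fell was 3.

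Of 3 further CDK inhibitors, 2 fell. Cdkn2d, the INK4 member p19, had a log2 FC of -0.87 ± 0.23 (adjusted p = 0.0240), and Cdkn3, a phosphatase that acts on CDKs, of -1.25 ± 0.35 (adjusted p = 0.0330). Cdkn2c, the INK4 member p18, was at -0.35 ± 0.39 (adjusted p = 0.595). Neither call held without replicate 2, 3 or 4.

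Of 18 pocket protein, E2F and DREAM complex genes, 6 fell and 0 rose (median -0.24). E2f8 (-3.65 ± 0.48, adjusted p = 0.00100) and Lin9 (-2.85 ± 0.46, adjusted p = 0.00272), a repressor E2F and a subunit of the complex that acts at cell cycle promoters, had the lowest adjusted p, and Rbl1, E2f7, Tfdp1 and Mybl2 fell as well. The count that fell was 3 without replicate 2 and 4 without any other replicate or without the block. Rb1, the pocket protein that D cyclin complexes phosphorylate, had a log2 FC of 0.11 ± 0.33 (adjusted p = 0.865).

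Of 25 S phase genes known as E2F targets, 21 fell and 0 rose (median -1.70). Mcm5 (-2.34 ± 0.23, adjusted p = 0.000317) and Mcm3 (-2.18 ± 0.25, adjusted p = 0.000556) encode subunits of the replicative helicase. Mcm5 had 2145, 2397, 878 and 959 scaled counts in control and 420, 625, 175 and 142 in OGTi, without overlap. Among those not called, Pcna, Cdt1 and Cdc45 had log2 FC of 0.25, 0.33 and -0.51. The count that fell was 20 without replicate 1, 17 without replicate 2, 3 or 4, and 16 without the block.

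Of 13 mitotic genes, 12 fell and 0 rose (median -2.15). Ccnb1, the mitotic cyclin B1, had 954, 1231, 591 and 411 scaled counts in control and 79.9, 176, 41.9 and 31.0 in OGTi. No OGTi library reached the lowest control, and Ccnb1 fell by 3.46 on the log2 scale (SE 0.28, adjusted p = 0.000201). Plk1, a mitotic kinase, fell by 3.20 (SE 0.26, adjusted p = 0.000201), and Ccnf, at 0.38, was not called. The count was 12 without replicate 1 and 11 without replicate 4.

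**Figure D4:**
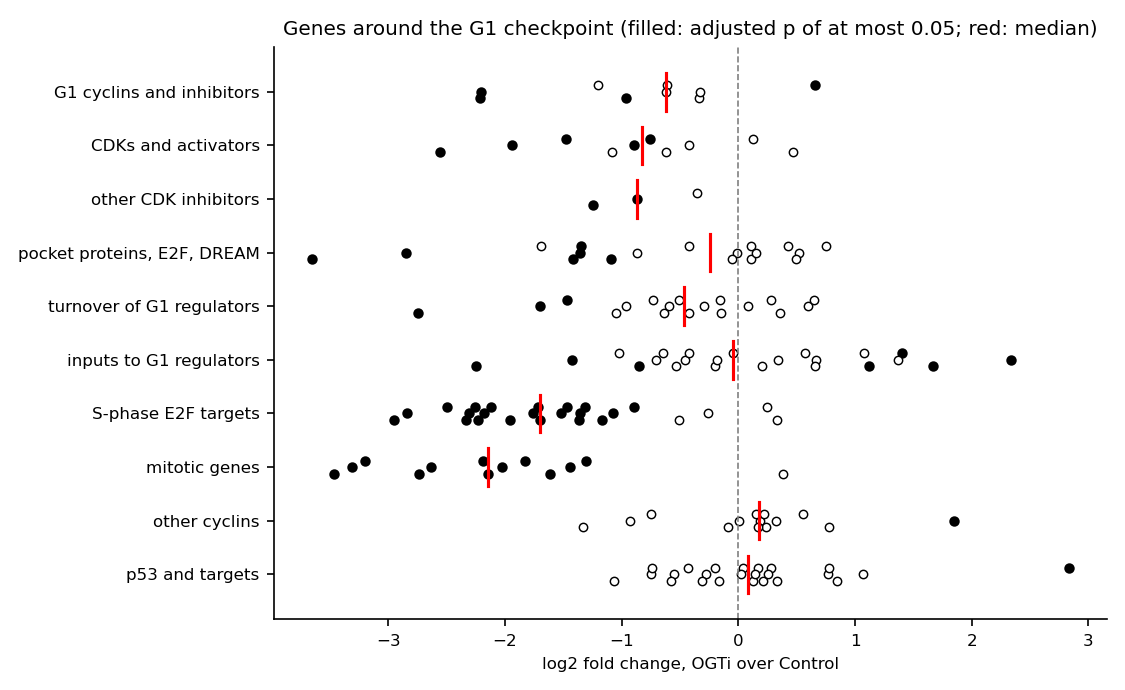
Log2 fold change, OGTi over control, of the tested genes in the G1 set (without Cdkn2a) and in the lists around it; filled points passed the edgeR test and red bars are list medians. S phase and mitotic genes sit almost wholly to the left of 0, with medians of -1.70 and -2.15, and the other cyclins and the p53 targets lie around 0.

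Of 14 cyclins outside the G1, S and mitotic sets, which serve transcription or cilia among other roles, 1 rose and 0 fell. Over all genes tested, 8.13% were higher and 10.2% lower. The cyclin that rose was Ccno, a cyclin of multiciliated cells, with 60.5, 36.9, 46.0 and 75.2 scaled counts in control and 217, 136, 143 and 304 in OGTi (log2 FC 1.85 ± 0.27, adjusted p = 0.00168). The median was 0.18 under TMM, and it was -0.02 under library totals, where 2 of the genes fell, and -0.12 on log2(TPM + 1), where 3 fell.

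Of 18 genes that control the turnover of G1 regulators, 3 fell and 0 rose (median -0.46), beside 10.2% lower and 8.13% higher over all genes tested. Cks1b (-1.47 ± 0.22, adjusted p = 0.00182) and Skp2 (-1.70 ± 0.32, adjusted p = 0.00538) serve the ubiquitin ligase that marks p27, and Dtl (-2.75 ± 0.43, adjusted p = 0.00240) serves the ligase that marks p21 in S phase. Fbxw7, the substrate receptor for cyclin E, had a log2 FC of -0.30 ± 0.23 (adjusted p = 0.428). Ambra1, the receptor for D cyclins, had one of 0.28 ± 0.25 (adjusted p = 0.485).

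Of 23 regulators upstream of the G1 genes, 4 rose and 3 fell (median -0.05). Those that rose were the immediate early factors Fos (1.67 ± 0.21, adjusted p = 0.000876), Fosl1 (1.12 ± 0.22, adjusted p = 0.00623) and Egr1, and Wwtr1, which encodes the YAP relative TAZ. Those that fell were Mycn (-2.25 ± 0.29, adjusted p = 0.00101), the TGF-beta receptor Tgfbr2 (-1.43 ± 0.22, adjusted p = 0.00229) and Smad3. Myc, a known activator of Ccnd2, was at -0.20 ± 0.19 (adjusted p = 0.537). The balance depends on the scale, with 6 higher and 3 lower under upper-quartile scaling (median 0.07), 4 higher and 6 lower on log2(TPM + 1) (-0.30), and 6 higher and 2 lower with the length trend removed (0.26).

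Of 24 genes of the p53 pathway other than Cdkn1a, 1 rose and 0 fell (median 0.08), beside 8.13% higher and 10.2% lower over all genes tested. The gene that rose was Gdf15, a secreted stress factor, with 2839, 4005, 2914 and 1275 scaled counts in control and 19157, 13434, 21421 and 20006 in OGTi, without overlap (log2 FC 2.84 ± 0.33, adjusted p = 0.000589). Trp53 itself was at -0.27 ± 0.19 (adjusted p = 0.369), and Mdm2, a classical target of p53, was at -0.17 ± 0.28 (adjusted p = 0.739). The median of this list was -0.11 under library totals, where 3 genes fell, and -0.23 on log2(TPM + 1), where 4 fell, so its sign depends on the scale.

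The enzyme inhibited by OSMI-1 and its counterpart were not called at the RNA level. Ogt had a log2 FC of -0.16 ± 0.24 (adjusted p = 0.714) and Oga, which removes the sugar, one of -0.65 ± 0.30 (adjusted p = 0.166). OSMI-1 acts on the OGT protein, so the transcript is no check of the treatment.

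**Figure D5:**
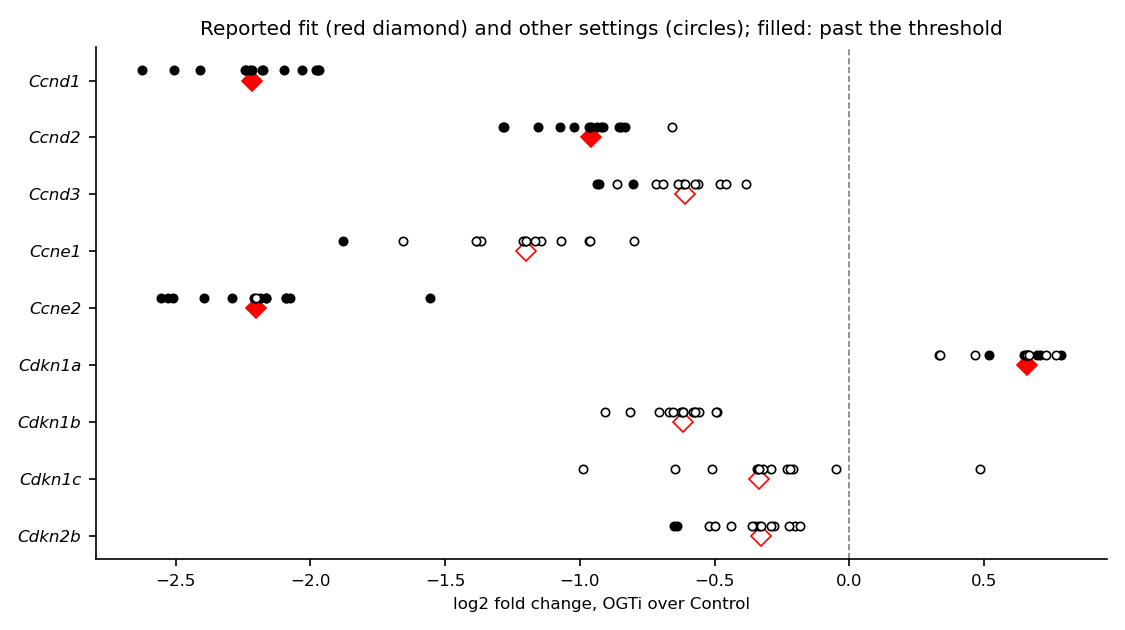
Log2 fold change of each gene but Cdkn2a as reported (red diamonds) and under the other settings (circles); filled symbols passed the threshold of that setting. Ccnd1 passes under all 14 settings, between -2.62 and -1.97, and Cdkn1a is positive under all 14 and past the threshold under 6.

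The genes most alike to each changed G1 gene were sought among 8141 genes of at least 10 CPM (counts scaled by library total) by the Pearson correlation of log2 CPM over the 8 libraries, which share the 2 treatment groups. Ccnd1 was most alike to Xrcc6 (0.992), Rpp25l (0.991) and Nudt2 (0.989). Ccnd2 was most alike to Cnpy4 (0.992), Etfbkmt (0.989) and Lbh (0.988). Ccne2 was most alike to the cytokinesis gene Prc1 (0.989), to Depdc5 (0.9746) and to the helicase gene Mcm4 (0.974). Cdkn1a was most alike to the sphingosine kinase gene Sphk1 (0.988), to Gstt1 (0.982) and to Ciart (0.977). These values describe the libraries, and 2 groups that differ give high values to many genes.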

How the data were processed

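The authors made stranded, paired-end, oligo-dT libraries, aligned them with Bowtie2 2.3.5.1 to the mm39 (GRCm39) mouse genome and quantified genes with RSEM 1.3.1. The deposited tables give, per gene, expected counts, which need not be whole and which divide reads shared between genes, and TPM scaled by the effective lengths that the authors' tables also list. The methods name GENCODE, whereas the tables carry RefSeq transcript identifiers. The deposited table of the authors' comparison (DESeq2 1.36.0) holds counts, fold changes and p-values and was not used, nor were its 16 columns of per-sample values.

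Expected counts were rounded to whole numbers. Genes with a total of at least 10 counts were scaled by TMM and tested with edgeR 4.0.16 (glmQLFit and glmQLFTest, R 4.3.3), with the replicate number as a block as in the study's methods, and with Benjamini-Hochberg adjustment over the 19963 genes tested. The threshold was an adjusted p of at most 0.05. The SE was taken as the log2 FC over the square root of F, and intervals are 95% t intervals. The biological coefficient of variation was 0.343. The pairing was checked on deviations from group means across genes, which are not independent replicates: same-numbered libraries correlated at 0.160, 0.224, 0.105 and 0.318, and others at -0.312 to 0.208. OGTi replicate 1 correlated more with control replicate 2 (0.208) than with its own control. Control replicate 3 correlated more with OGTi replicate 4 (0.122) than with OGTi replicate 3. P-values measure the spread between these 8 cultures, and intervals do not cover other sources of error. The fit was also run on simulated counts with no replicate effect and less spread than these data. That run does not check the calls reported here.

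The genes and the lists around them were chosen with earlier results of these data known. Named are all 10 genes, up to 4 called genes of lowest adjusted p per list (2 in each direction), all genes of the small lists (further inhibitors, Cdkn2 neighbours, OGT and OGA), and the 3 genes most alike to each changed member. Others named were chosen after their values were seen. They are Cdk4, Cdk6, Rb1, Pcna, Cdt1, Cdc45, Ccnf, Skp2, Fbxw7, Ambra1, Myc, Trp53, Mdm2, the untested H19, and the remaining called members of short lists. Among the markers they are Hnf4a, Adgre1, Krt7, Epcam, Spp1, Pecam1, Dcn, Acta2, Reln, Hand2, Lhx2 and Rgs5. Alternatives were other scalings, filters and thresholds, DESeq2 1.42.0, limma 3.58.1 on TPM with 1 or 0.1 added, no block, removal of the gene length trend, and each replicate left out. Promoter sequences are from RefSeq, and gene positions are from GENCODE vM39 on GRCm39.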

Additional observations from a re-analysis of the deposited data

Results flagged for a closer look

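Of 34 groups of 4 libraries examined for a single library far from the rest, 0 passed Dixon's 95% limit, beside 1.7 that chance would give. With 4 values this limit has little power, so the result does not show that no library stands apart. Control replicate 4, OGTi replicate 1 and OGTi replicate 4 stood apart by the gene counts given above.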

How the results depend on the processing

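Ccnd1 kept its direction and call in 14 of 14 other settings, and Ccnd2 and Ccne2 in 13 of 14. Without the replicate block the pairing is ignored: 2991 genes were called (2824 of them shared with the 3666), 3 of the 10 genes were called, and Cdkn1a was at 0.66 (adjusted p = 0.0690). The block changed no other call among the 10. At an adjusted p of at most 0.01, 1668 genes were called (751 higher, 917 lower), and 2 of the 10, since Ccne2 (-2.20) and Cdkn1a (0.66) no longer passed. Library totals alone gave Ccnd3 -0.80, now called, and Cdkn1a 0.47, no longer called. On log2(TPM + 1) and log2(TPM + 0.1), 3456 and 3473 genes were lower, Ccnd3 (-0.93 and -0.94) and Cdkn2b (-0.64 and -0.65) were called and Cdkn1a (0.33 in both) was not. With the length trend removed Ccnd2 was at -0.66 and not called, and without the filter on low counts Ccne1 was at -1.20 and called (adjusted p = 0.00752). The cause of these changes was not tested.

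Leaving out each replicate in turn gave 1905 to 3124 changed genes (843 to 1433 higher, 1062 to 1744 lower). The log2 FC ranged from 0.52 to 0.77 for Cdkn1a, from -1.88 to -0.80 for Ccne1, and from -0.99 to 0.48 for Cdkn1c, where it was positive without replicate 1. The difference in the Ccnd2 share of D cyclins ranged from -6.07 to 0.96 percentage points (positive without replicate 4), and that in the Cdkn2a share of INK4 transcripts from -0.105 to 0.0561 (positive without replicate 1, and at 0.0428 without replicate 3). Among CDKs and activators, 3 genes fell without replicate 4, a choice made after seeing the data.

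The median log2 FC of all genes was 0.01 under TMM, 0.13 under upper-quartile scaling, 0.14 without the filter, -0.19 under library totals and -0.10 and -0.24 on the 2 TPM scales. The share of called genes that were higher was 44.3% under TMM, 54.2% under upper-quartile scaling, 30.1% under library totals and 25.7% and 26.2% on the TPM scales. A difference in Cdkn1c or Cdkn2a was not detectable at this depth.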
